A study of Mus musculus with 20 samples.

Results

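The clustered histone genes were taken as the non-control probes whose gene name begins with Hist1h, Hist2h, Hist3h or Hist4h, which gave 51 of the 39429 non-control probes and 46 of the 31093 gene names on the array. They comprised 5 genes of the linker histone H1, 13 of H2A, 11 of H2B, 8 of H3 and 9 of H4. The data were 20 single-colour Agilent arrays of globin-reduced whole-blood RNA from male mice, with 5 mice in each of 4 groups: WT C57BL/6 and Il10-/- mice on the same background, each bled 24 h after sham exposure (0 Gy) or 7 Gy of whole-body X-rays. Il10-/- mice lack a functional interleukin-10 gene and are used as a model of inflammatory bowel disease that covers 1 cytokine, and here 1 sex, 1 dose and 1 time. The Il10 probe averaged -1.54 ± 0.45 (SD, n = 5) at 0 Gy and -1.85 ± 0.61 at 7 Gy in arrays labelled WT, but 2.75 ± 0.31 and 2.71 ± 0.62 in arrays labelled Il10-/-. It was well above background on 0 of 5 arrays in each WT group and on 5 of 5 in each Il10-/- group, and the files do not say whether this probe lies in the disrupted part of the gene. At 0 Gy, 8 mature neutrophil genes had a median difference of 1.89 (arrays labelled Il10-/- minus WT), with 8 of 8 above 0, beside 74.99% of all detected probes. By the rule for calls given below, 1 of them was called higher. This was 6 with the slide as a block and 0 with replicates 1 and 2 averaged. Whether the genotype labels were exchanged was not tested, and an exchange would turn each difference between genotypes. The genotype names used for every direction given here are those of the labels.

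Most clustered histone genes are replication-dependent: they are transcribed in S phase, when new DNA has to be packed, and their transcripts end in a stem-loop in place of a poly(A) tail. Some of these genes also give polyadenylated transcripts, for instance in cells that have left the cell cycle. The labelling kit primes from oligo-dT, so the signal of a clustered histone probe need not follow the total amount of its transcript.

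Levels are given in log2 units relative to the median of the non-control probes of the same array. Across the 20 arrays, 29.9% (WT 0 Gy replicate 5) to 57.8% (Il10-/- 0 Gy replicate 4) of the spots were well above background. Of the 46 genes, 42 were detected, meaning well above background on at least 5 arrays, and 27 were so on all 20. Detected genes numbered 4 of 5 for H1, 12 of 13 for H2A, 10 of 11 for H2B, 7 of 8 for H3 and 9 of 9 for H4. Hist1h1d, Hist2h2ab, Hist1h2bq and Hist1h3g were not detected, and no direction is claimed for levels this close to background. Each slide carried 1 array of each group, and differences within the 5 slides are given beside the fits. A difference is 7 Gy minus 0 Gy unless named otherwise, and a probe was called when limma gave it p below 0.001 and a false discovery rate below 10% over all 39429 probes.

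Where a probe lies on its gene decides which transcripts it can report, so the probe sequences were examined first. The letters CTTTTCAG, which hold the loop of the histone stem-loop and the adjoining bases of its stem, occurred in 5 of 51 member probes (9.8%) and in 66 of all 39429 probes (0.167%). They are in capitals in the following windows of at most 30 bases.
Hist1h2ae: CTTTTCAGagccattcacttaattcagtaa
Hist2h2bb: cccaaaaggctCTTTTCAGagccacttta
Hist1h3a: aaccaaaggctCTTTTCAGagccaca
Hist1h3i: aacaaaaggctCTTTTCAGagccccctc
Hist1h4m: aactaaaggccCTTTTCAGggccatccaa
In the last 4 of these windows 6 base pairs of the stem can form, whereas the Hist1h2ae probe begins at the capitals and holds 2. The 5 probes differed between 7 and 0 Gy by -0.82 to 0.94 in WT (median -0.53, 1 of 5 above 0) and by -1.28 to 0.89 in Il10-/- (median -0.08, 2 of 5 above 0). Another 5 probes, of Hist1h1d, Hist1h2ac, Hist1h2be, Hist1h2bq and Hist2h2be, start past base 1000 of their target, far beyond the length of a transcript that ends at the stem-loop. The 3 of them that were detected, Hist1h2ac, Hist1h2be and Hist2h2be, differed by 0.25, 1.05 and -0.52 in WT and by 1.30, 1.48 and -0.74 in Il10-/-. The limit of 1000 leaves out the probes of Hist2h3c2, Hist1h2bc, Hist1h2bg and Hist1h2bp, which start at base 957, 632, 581 and 505. Whether these also lie past the stem-loop was not examined, so differences between genes or classes may compare unlike transcripts. In the Hist1h2be probe the letters ATTAAA, a variant of the polyadenylation signal, are in capitals.
Hist1h2be: gtactgttcattATTAAAgcattcctgatt
These letters occurred in 2 member probes and in 1796 (4.56%) of all probes. A run of 6 A closes the probes of Hist2h3c2 and of Hist1h4i (main probe), as in 1.22% of all probes.

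Histone coding regions are so alike that a probe may bind transcripts of several genes. The array annotation listed more than 1 RefSeq gene for 16 of the 51 probes (6 of H2A, 2 of H2B, 2 of H3, 6 of H4, up to 4 genes each), 1 gene for 28 and none for 7. Among detected probes, the 15 shared ones differed by -0.16 to 0.96 in WT and by -0.35 to 1.00 in Il10-/-, with 13 of 15 above 0 in each genotype. The 25 detected probes with a single listed gene spanned -1.85 to 1.08 in WT and -1.49 to 1.48 in Il10-/-, with 14 and 13 above 0. The 5 genes called in either genotype all had a probe that lists a single gene. Among these, the probes of Hist1h3c and Hist1h3f share 36 bases, so a single listed gene does not make their values independent. For 3 genes whose own probe was lower after 7 Gy in both genotypes, a shared probe lists the same gene. The difference of Hist1h3c was -1.55 in WT and -0.92 in Il10-/- by its own probe, beside 0.73 and 0.06 by the Hist1h3d probe, which lists 4 genes. The difference of Hist1h2ab was -1.02 and -1.34, beside 0.07 and 0.17 by the Hist1h2af probe. The difference of Hist1h2bp was -1.68 and -1.49, beside 0.96 and 1.00 by the Hist1h2bm probe. The Hist1h2bp and Hist1h2bm probes start at base 505 and 144 of their targets and may report unlike transcripts. These pairs were picked after their values were seen. A shared probe that stays level or goes up therefore does not show that each gene it lists did so.

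Over all members, 7 Gy was compared with 0 Gy in WT to ask whether radiation changed the histone transcripts of blood. In WT, limma called 0 of 51 probes higher and 3 lower after 7 Gy (5.88% of the members), where it called 2.32% of all probes higher and 1.34% lower. At an unadjusted p under 0.05 there were 8 members higher and 4 lower, beside 11.4% and 6.28% of all probes. In bulk blood, fewer cells of a type and less RNA per cell cannot be told apart. In 4 members every 7 Gy array was above every 0 Gy array and in 4 every one was below, beside 6.17% and 2.48% of all probes. The WT count rested on single arrays: it was 5 without 0 Gy replicate 5, 1 without any of 0 Gy replicates 1 to 4 or of 7 Gy replicates 2 and 3, and 0 without 7 Gy replicate 1 or 5. It was 2 with the slide as a block in the fit, 1 with the study's 2 filters and 0 with replicates 1 and 2 averaged. Of the 46 detected member probes, 32 were above 0 (69.6%, beside 54.5% of all detected probes), 29 were above the median of all detected probes and the range was -1.85 to 1.08, with 9 probes higher and 5 lower on each of the 5 slides. The share of all probes that kept 1 direction on each slide was not counted, so these slide counts show nothing particular to the members.

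The same comparison was made in Il10-/- mice. In Il10-/-, limma called 1 member higher and 2 lower (5.88% of the members), where it called 2.14% of all probes higher and 2.51% lower. At an unadjusted p under 0.05 there were 15 members higher and 6 lower, close to the shares of all probes (27.8% and 11.8%). In 6 members the groups were apart with 7 Gy higher and in 3 with 7 Gy lower, beside 4.38% and 6.18% of all probes. The count was 3 here, 2 without 0 Gy replicate 1 or 7 Gy replicate 1, and 4 without 7 Gy replicate 3 or 5. With the slide as a block it was 1, Hist1h2bp, so that none of the 3 kept its call, and with replicates 1 and 2 averaged it was 0. It also moved with the scaling, to 14 (11 higher, 3 lower) after quantile normalization, which gives each array the same distribution, and to 16 (13 higher, 3 lower) after normexp, a model-based background correction followed by it. It was 7 (5 higher, 2 lower) after scaling to a reference array. Of all probes, limma called 6.38%, 6.91% and 5.59% under these 3 settings and 4.65% here. Of the 46 detected member probes, 31 were above 0 (67.4%, beside 40.01% of all detected probes but 63.6% of all probes), 32 were above the median of all detected probes, 19 above that of all probes and the range was -1.49 to 1.48, with 18 probes higher and 7 lower on each of the 5 slides. Here too the slide counts have no share of all probes beside them. The called gene Hist1h1b is the only one shared by the 2 genotypes.

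**Figure D1:**
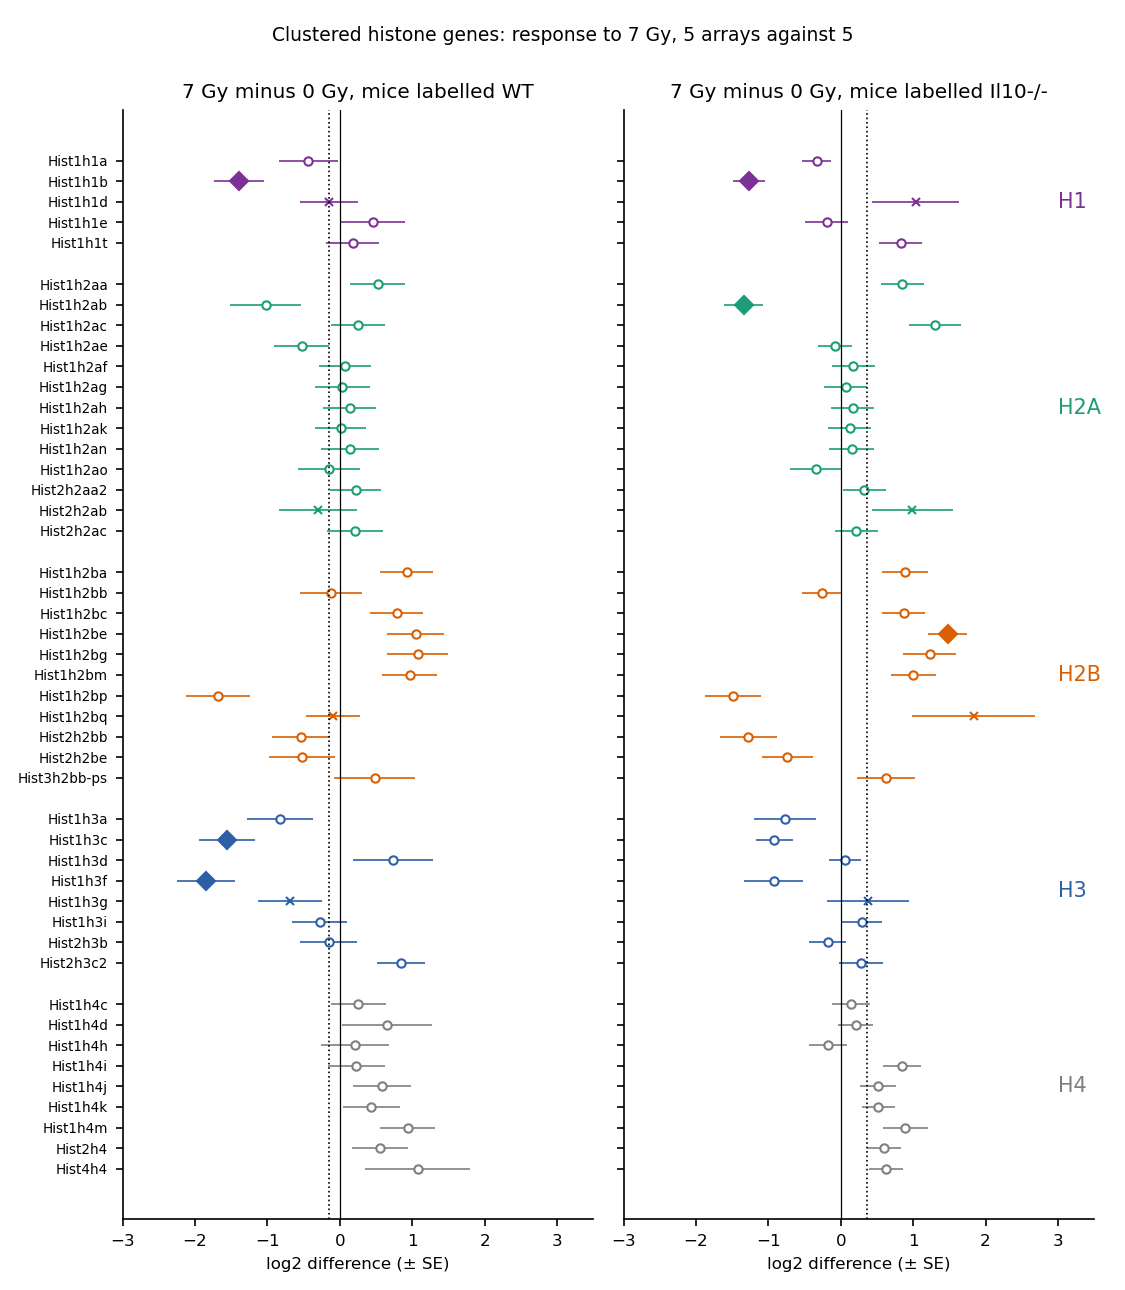
Log2 difference (7 Gy minus 0 Gy, ± SE from limma, n = 5 mice a group) of the 46 clustered histone genes in WT and Il10-/- mice, coloured by class; filled diamonds were called, open circles were not, crosses were not detected, and the dotted line is the median of all probes. Differences run from -1.85 (Hist1h3f) to 1.08 (Hist4h4) in WT, and the 3 called genes in WT lie below the line.

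The all-probe median itself was -0.15 in WT and 0.36 in Il10-/- with dim probes included, and over the 21758 detected probes it was 0.10 and -0.15. Under other scalings it was -0.38 and 0.39 (75th percentile), -0.08 and 0.02 (quantile), -0.26 and 0.50 (reference array) and -0.02 and -0.00 (normexp). Class medians over detected genes are therefore given as fitted and, in brackets, relative first to all probes and then to the detected probes, a reference added after the data were seen. In WT, the H2B median was 0.63 (0.78, 0.54), above 0 under each of these scalings though at 0.08 under normexp, and the H3 median was -0.28 (-0.13, -0.37), below 0 under each. The WT H4 median was 0.56 (0.71, 0.46) but flipped to -0.06 under normexp, the WT H2A median was 0.10 (0.25, 0.01) but flipped to -0.12 under the 75th percentile and to -0.00 under the reference array, and the WT H1 median was -0.13 (0.02, -0.23), which the study's 2 filters flipped to 0.18. The deposited table, with 29 of the 51 probes and 4 H2A genes, gave -0.22 for H2A in WT, and leaving out WT 0 Gy replicate 5 gave -0.08. In Il10-/-, no scaling flipped the fitted medians, which were -0.26 for H1 (-0.62, -0.11), 0.75 for H2B (0.39, 0.90), -0.18 for H3 (-0.54, -0.03, the latter 0.02 under quantile) and 0.52 for H4 (0.16, 0.67). Some were smaller under other scalings: H1 was at -0.06 and H2B at 0.31 under normexp, and H3 at -0.03 under the reference array. Among the H2B genes, Hist1h2bb was well above background on 7 of 10 arrays at 0 Gy and 2 of 10 at 7 Gy. No H2B median without Hist1h2bb was made. The Il10-/- H2A median was 0.16 (-0.20, 0.31), and its value relative to all probes flipped to 0.51 under quantile and 0.45 under normexp. Hist1h3a was well above background on 5 of 10 arrays at 0 Gy and 0 of 10 at 7 Gy. Without it, as looked at only once its values were known, the H3 median was -0.22 in WT, below 0 under each scaling, and -0.06 in Il10-/-, which flipped to 0.09 under the reference array and 0.02 under normexp.

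A gap between classes does not depend on a constant shift of the scale. Above 0 were 6 of 10 detected H2B genes, 2 of 7 of H3 and 9 of 9 of H4 in WT, and 6, 3 and 8 of them in Il10-/-. By their medians, H2B lay above H3 by 0.91 in WT and 0.93 in Il10-/-, over 0.68 to 1.05 and 0.81 to 1.07 with single arrays left out, and by 0.27 and 0.39 under normexp. H4 lay above H3 by 0.84 and 0.70, over 0.52 to 1.00 and 0.64 to 0.81 with single arrays left out, and by 0.13 and 0.64 under normexp. Without Hist1h3a the gaps to H3 were 0.85 and 0.80 for H2B and 0.77 and 0.58 for H4. In the deposited table, which holds fewer of the probes, the gaps to H3 were 1.12 and 1.57 for H2B and 1.54 and 1.56 for H4. No test was made of these gaps, and the probes of a class differ in where they lie on their transcripts.

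Within slides 1 to 5, the H2B median in WT was 0.23, 0.15, 1.00, 0.31 and 1.55 and the H3 median -0.43, -0.76, -0.02, -0.80 and 0.92. H2B thus lay above H3 on each slide, while the H3 direction flipped on slide 5. In Il10-/- the H2B medians were 0.60, -0.12, 0.89, 1.82 and 0.22 and the H3 medians -0.74, -0.50, 0.03, 0.57 and -0.31, again with H2B above H3 on each slide and with the H3 sign flipped on slides 3 and 4. The H4 medians were 0.04, -0.16, 0.48, 0.30 and 1.83 in WT and 0.21, 0.26, 0.47, 1.04 and 0.58 in Il10-/-, above 0 on 4 and on 5 slides. The H2A medians were -0.27, -0.55, 0.08, -0.02 and 1.36 in WT and -0.29, -0.31, 0.24, 1.12 and 0.10 in Il10-/-. The H1 medians were -0.67, -0.26, -0.14, -0.37 and 0.55 in WT and -0.51, -0.38, -0.46, 0.15 and -0.13 in Il10-/-. Slide 5 gave the highest WT median of the 5 slides in every class, and its WT 0 Gy array had the smallest share of spots above background of all 20. Without that array the WT medians were -0.08 for H2A and 0.18 for H4, and without WT 0 Gy replicate 4 the WT H1 median was 0.08.

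**Figure D2:**
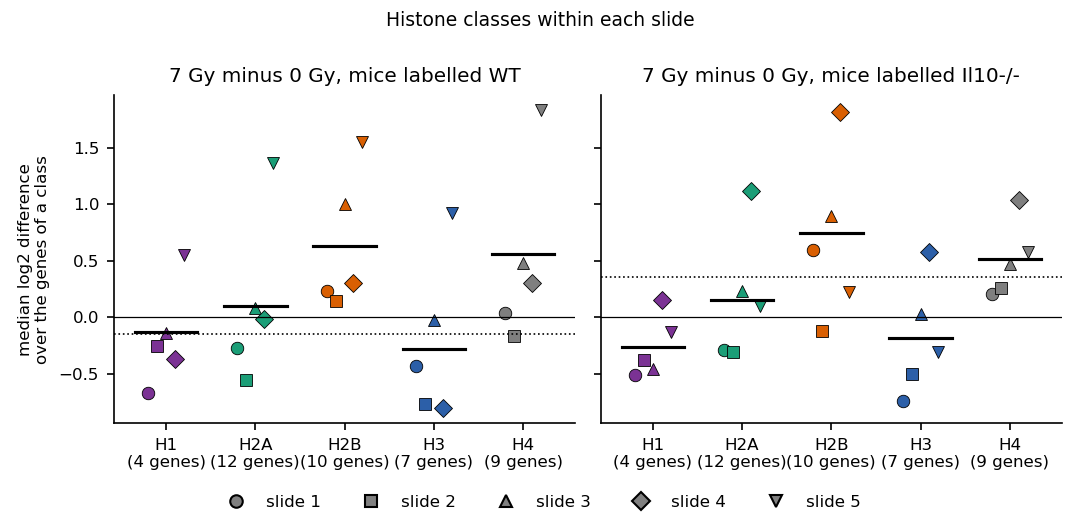
Median log2 difference (7 Gy minus 0 Gy) of each histone class on each of the 5 slides in WT and Il10-/- mice, with bars at the class median of the fit and a dotted line at the all-probe median. In WT, slide 5 is the highest point of each class, up to 1.83 for H4.

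**Figure D3:**
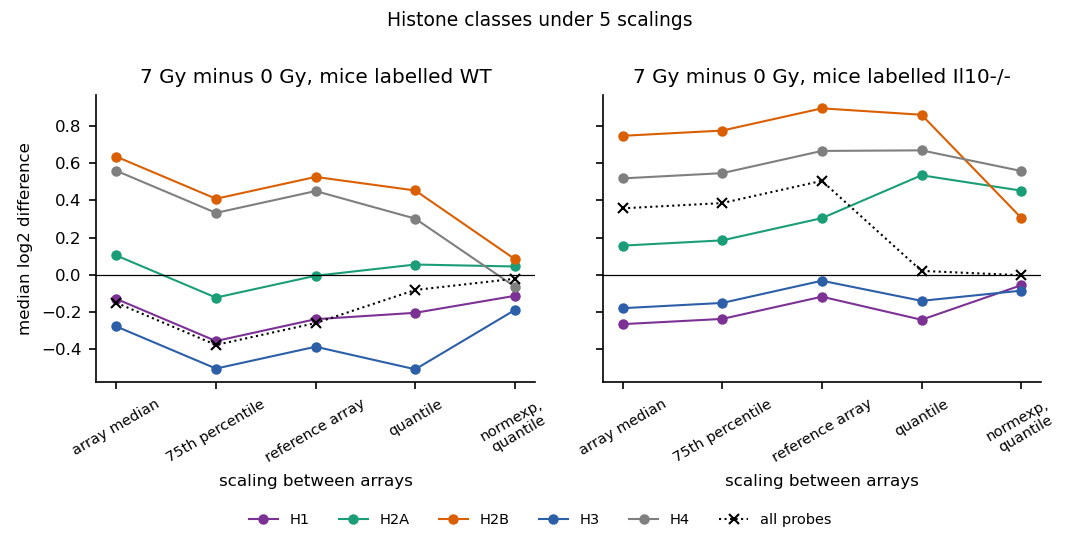
Median log2 difference (7 Gy minus 0 Gy) of each histone class under 5 scalings between arrays in WT and Il10-/- mice, with crosses on a dotted line for all probes. In WT, H4 flips from 0.56 to -0.06 and H2A from 0.10 to -0.12 between scalings, while H2B stays above H3 in both genotypes.

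H1 histones bind the DNA between nucleosomes. The sequence of the Hist1h1b probe, at mm9 chr13:21871923-21871982, is given because this gene alone was called in both genotypes, and it lists no other gene.
Hist1h1b: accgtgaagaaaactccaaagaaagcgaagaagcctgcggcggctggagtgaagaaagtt
In WT mice Hist1h1b was at 3.00, 2.90, 2.97, 2.88 and 3.00 at 0 Gy and at 1.18, 1.23, 1.87, 2.06 and 1.44 at 7 Gy, in order of replicates 1 to 5. The highest 7 Gy value, 2.06, was below each 0 Gy value. Hist1h1b fell by 1.39 ± 0.341 (SE, n = 5), a 2.63-fold decrease with a limma-adjusted p of 0.0261, and by 0.83 to 1.82 within slides. That call was lost without any of WT 0 Gy replicates 1 to 4 or any of the 5 WT 7 Gy arrays, where the difference was -1.52 to -1.30, and under normexp, where it was -0.37. It was also lost with the slide as a block (unadjusted p 0.00177), with the study's 2 filters and with replicates 1 and 2 averaged (p 0.00959). The Il10-/- values were 3.01, 3.03, 2.82, 2.60 and 2.82 at 0 Gy and 1.45, 1.35, 1.35, 1.96 and 1.84 at 7 Gy. Again the groups did not overlap, and replicate 4 had both the lowest 0 Gy and the highest 7 Gy value. Hist1h1b fell by 1.27 ± 0.223 (SE, n = 5), a 2.41-fold decrease with a limma-adjusted p of 0.00662. This call held whichever array was left out but was lost with the slide as a block (unadjusted p 0.00151) and with replicates 1 and 2 averaged (p 0.0019). The interaction of genotype and dose was 0.13 with a limma-adjusted p of 0.861.

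Hist1h1e stood at 4.34, 4.22, 4.07, 4.10 and 2.13 in WT 0 Gy and at 4.22, 4.01, 4.06, 4.73 and 4.14 in WT 7 Gy. Replicate 5 at 0 Gy lay far below the other 9 values, and the groups overlapped. The difference of 0.46 ± 0.443 (SE, n = 5) was not called, was 0.05 without that array and flipped to -0.0577 under normexp. The Il10-/- mice had Hist1h1e at 4.43, 4.09, 4.04, 4.57 and 3.94 at 0 Gy and at 3.80, 3.86, 3.38, 4.90 and 4.16 at 7 Gy, overlapping, with a difference of -0.20. Hist1h1t, a testis gene, differed by 0.18 in WT and by 0.83 in Il10-/- (limma-adjusted p 0.0851, not called), and Hist1h1a by -0.44 and -0.33. H1 genes thus spread on both sides of 0 in each genotype.

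H2A pairs with H2B in the core of the nucleosome. Of the 14 H2A probes, 6 were at least 90% identical over 40 or more bases to another member. In 4 probes that cover the same place of the coding region, the 10 columns where they differ are in capitals.
Hist1h2af: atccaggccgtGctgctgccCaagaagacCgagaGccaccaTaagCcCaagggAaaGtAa
Hist1h2ak main probe: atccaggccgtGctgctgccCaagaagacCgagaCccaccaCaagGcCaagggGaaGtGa
Hist1h2an: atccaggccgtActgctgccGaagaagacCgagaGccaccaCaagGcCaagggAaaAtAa
Hist2h2aa2: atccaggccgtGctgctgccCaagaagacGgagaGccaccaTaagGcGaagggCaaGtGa
The Hist1h2af, Hist1h2an and Hist2h2aa2 probes share 55, 54 and 55 of 60 bases with that of Hist1h2ak. Their values may therefore hold the same transcripts. In these 4 probes 7 Gy and 0 Gy differed by 0.01 to 0.22 in WT and by 0.13 to 0.33 in Il10-/-, and none was called. The 9 member probes with such a near copy, 6 of H2A and 3 of H4, differed by 0.01 to 0.68 in WT and by 0.07 to 0.74 in Il10-/-.

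Hist1h2ab, whose probe lists a single gene, was the only H2A gene called. In Il10-/- mice it was at 5.29, 4.91, 4.90, 4.96 and 4.85 at 0 Gy and at 3.20, 3.06, 4.17, 3.86 and 3.92 at 7 Gy. The groups did not overlap, and replicates 1 and 2 were the lowest of the irradiated mice. Hist1h2ab fell by 1.34 ± 0.267 (SE, n = 5), a 2.53-fold decrease with a limma-adjusted p of 0.0117, by 0.73 to 2.09 within slides. The call was lost without Il10-/- 0 Gy replicate 1 (-1.26) or Il10-/- 7 Gy replicate 1 (-1.23), with the slide as a block (unadjusted p 0.00243), with all 4 groups in 1 fit (p 0.00349) and with replicates 1 and 2 averaged (p 0.00313). In WT mice Hist1h2ab was at 5.12, 5.08, 4.94, 5.11 and 2.62 at 0 Gy and at 3.43, 2.94, 3.41, 3.94 and 4.03 at 7 Gy. Replicate 5 at 0 Gy lay below each other value, and the other 4 values at 0 Gy lay above each irradiated mouse. The WT difference of -1.02 ± 0.493 (SE, n = 5) was not called (limma-adjusted p 0.296), and without that array it was -1.51 with a limma-adjusted p of 0.0106 and called. The interaction was -0.31 with a limma-adjusted p of 0.776.

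Hist1h2ac stood at 4.15, 4.08, 3.24, 3.10 and 4.40 in Il10-/- 0 Gy and at 5.45, 5.27, 4.04, 5.48 and 5.25 in Il10-/- 7 Gy. Replicate 3 at 7 Gy was the only irradiated value within the 0 Gy range. The difference of 1.30 ± 0.363 (SE, n = 5), positive on each of the 5 slides, was not called (limma-adjusted p 0.047), and without that array it was 1.57 with a limma-adjusted p of 0.0127 and called, as it was under the reference array and in the deposited table (1.45 in both). In WT mice Hist1h2ac stood at 4.18, 4.29, 3.64, 3.44 and 3.06 at 0 Gy and at 3.62, 3.59, 4.13, 4.05 and 4.48 at 7 Gy. These overlapped, with a difference of 0.25 and an interaction of 1.05 (limma-adjusted p 0.228). Hist1h2aa differed by 0.52 in WT and 0.85 in Il10-/-, and the 8 probes of Hist1h2af, Hist1h2ag, Hist1h2ah, Hist1h2ak (main), Hist1h2an, Hist1h2ao, Hist2h2aa2 and Hist2h2ac by -0.15 to 0.22 and by -0.35 to 0.33.

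H2B is the partner of H2A. The Hist1h2be probe lies at mm9 chr13:23675610-23675669, past base 1000 of its target, and lists a single gene. In Il10-/- mice Hist1h2be was at 3.36, 3.42, 3.18, 2.83 and 3.57 at 0 Gy and at 4.87, 4.81, 4.05, 5.32 and 4.69 at 7 Gy. No irradiated mouse fell in the 0 Gy range, and replicate 3 was the lowest of them. Hist1h2be rose by 1.48 ± 0.273 (SE, n = 5), a 2.78-fold increase with a limma-adjusted p of 0.00814, by 0.88 to 2.49 within slides. The call held whichever array was left out but was lost with the slide as a block (unadjusted p 0.00156) and with replicates 1 and 2 averaged (p 0.00146). In WT mice Hist1h2be was at 3.25, 3.55, 3.57, 4.07 and 2.41 at 0 Gy and at 3.99, 4.03, 4.54, 4.82 and 4.71 at 7 Gy. Only 0 Gy replicate 4 reached into the irradiated range. The WT difference of 1.05 ± 0.392 (SE, n = 5) was not called (limma-adjusted p 0.147), and the interaction was 0.43 with a limma-adjusted p of 0.602.

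Hist1h2bp went the other way. In WT mice it was at 4.29, 4.17, 4.09, 5.17 and 3.40 at 0 Gy and at 1.99, 1.63, 2.91, 3.37 and 2.82 at 7 Gy. The groups were apart by the narrow margin between 3.40 and 3.37. The difference of -1.68 ± 0.44 (SE, n = 5) was negative on each slide but not called (limma-adjusted p 0.0361), and was called without WT 0 Gy replicate 5 (-1.89) or WT 7 Gy replicate 4 (-1.89). Among Il10-/- mice Hist1h2bp was at 5.43, 5.24, 4.72, 4.63 and 6.36 at 0 Gy and at 3.41, 3.28, 3.82, 3.63 and 4.77 at 7 Gy. Irradiated replicate 5 alone reached the 0 Gy range. The difference of -1.49 ± 0.386 (SE, n = 5) was not called (limma-adjusted p 0.0353), and was called at -1.74 without Il10-/- 7 Gy replicate 5 and with the slide as a block (limma-adjusted p 0.037). The sign of Hist1h2bp was thus opposite to that of Hist1h2be in both genotypes.

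The sequence of the Hist1h2bm probe is given because it lists 4 genes, Hist1h2bp among them.
Hist1h2bm: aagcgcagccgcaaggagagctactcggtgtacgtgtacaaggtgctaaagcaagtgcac
Hist1h2bm was at 8.34, 8.49, 8.18, 8.70 and 7.22 in WT 0 Gy and at 8.77, 8.92, 9.32, 9.49 and 9.23 in WT 7 Gy. The groups did not overlap, and 0 Gy replicate 5 was the lowest value. The Il10-/- values were 9.16, 9.37, 8.33, 7.94 and 9.04 at 0 Gy and 9.78, 9.85, 9.36, 10.02 and 9.84 at 7 Gy, touching at replicate 2 of 0 Gy. The differences of 0.96 (limma-adjusted p 0.174) and 1.00 (limma-adjusted p 0.0621) were not called. Hist1h2bg differed by 1.08 and 1.23, Hist1h2ba by 0.92 and 0.89, Hist1h2bc by 0.78 and 0.87, the dim Hist2h2bb by -0.53 and -1.28 and Hist2h2be by -0.52 and -0.74 in WT and Il10-/-, none of them called. At an unadjusted p under 0.05, H2B had 5 probes higher and 1 lower in WT and 5 higher and 2 lower in Il10-/-, where 17.7% and 39.7% of all probes passed that p in either direction.

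H3 forms the centre of the nucleosome with H4. The probes of Hist1h3c, at mm9 chr13:23837328-23837387, and Hist1h3f, at mm9 chr13:23636330-23636389, are given because these were the 2 H3 genes called in WT. Capitals mark the 36 bases they share, which no other probe on the array holds. Though each lists a single gene, their values may in part hold the same transcripts.
Hist1h3c: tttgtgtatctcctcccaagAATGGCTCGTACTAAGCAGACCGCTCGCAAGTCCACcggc
Hist1h3f: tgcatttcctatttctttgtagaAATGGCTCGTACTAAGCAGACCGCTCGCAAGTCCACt
In WT mice Hist1h3f was at 3.11, 3.18, 3.19, 3.72 and 2.44 at 0 Gy and at 0.91, 1.35, 1.85, 1.83 and 0.43 at 7 Gy. Each irradiated value was below each 0 Gy value, with replicate 5 lowest in both groups. Hist1h3f fell by 1.85 ± 0.4 (SE, n = 5), a 3.61-fold decrease with a limma-adjusted p of 0.0135, by 1.34 to 2.19 within slides. The call was lost without WT 7 Gy replicate 1 (-1.76) or replicate 5 (-1.64), under normexp (-0.89) and with replicates 1 and 2 averaged (unadjusted p 0.00225). Among Il10-/- mice Hist1h3f was at 3.09, 3.42, 2.09, 2.05 and 1.76 at 0 Gy and at 1.82, 2.21, 0.68, 2.01 and 1.08 at 7 Gy. These overlapped, and the difference of -0.93 ± 0.408 (SE, n = 5) was not called (limma-adjusted p 0.115). The interaction was 0.93 with a limma-adjusted p of 0.335, so a difference between the genotypes was not shown.

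In WT mice Hist1h3c was at 7.02, 7.40, 7.47, 8.09 and 7.22 at 0 Gy and at 5.49, 5.67, 6.29, 6.62 and 5.34 at 7 Gy. The groups did not overlap, and replicate 4 was highest in both. Hist1h3c fell by 1.55 ± 0.384 (SE, n = 5), a 2.94-fold decrease with a limma-adjusted p of 0.0269, by 1.18 to 1.87 within slides. Its call was kept without WT 0 Gy replicate 5 or WT 7 Gy replicate 4 and lost without any of the other 8 WT arrays, where the difference was -1.66 to -1.39, with the study's 2 filters and with replicates 1 and 2 averaged (unadjusted p 0.00561). In Il10-/- mice Hist1h3c was at 7.09, 7.08, 6.82, 6.47 and 6.52 at 0 Gy and at 6.06, 6.12, 5.36, 6.15 and 5.71 at 7 Gy. These did not overlap either, but the difference of -0.92 ± 0.25 (SE, n = 5) was not called (limma-adjusted p 0.0439). The interaction was 0.64 with a limma-adjusted p of 0.395.

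Hist2h3c2 stood at 1.98, 2.05, 1.84, 1.96 and 1.48 in WT 0 Gy and at 2.83, 2.93, 2.46, 2.55 and 2.78 in WT 7 Gy. Every irradiated value was above every 0 Gy value. The difference of 0.85 ± 0.331 (SE, n = 5) was not called (limma-adjusted p 0.17), and in Il10-/- it was 0.28 with overlapping groups. Hist1h3d differed by 0.73 and 0.06, Hist1h3i by -0.28 and 0.29, Hist2h3b by -0.16 and -0.18 and the dim Hist1h3a by -0.82 and -0.76 in WT and Il10-/-. Of the 6 detected H3 genes other than Hist1h3a, 4 were below 0 in WT and 3 in Il10-/-.

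H4 pairs with H3, and all its genes encode nearly the same protein. Of the 13 H4 probes limma called 0 in either genotype, with 2 higher and 0 lower at an unadjusted p under 0.05 in WT and 7 higher and 0 lower in Il10-/-, beside 11.4% and 27.8% of all probes higher at that p. In Il10-/- this count of 0 moved with the scaling, to 6 called higher under quantile, 7 under normexp and 3 under the reference array. It was 1 in the deposited table. Of all 39429 probes, limma called 843 higher in Il10-/- here, 900 under quantile, 901 under normexp and 1261 under the reference array. Of the 16866 probes in the deposited table, limma called 946 higher in Il10-/-. In each genotype 12 of the 13 differences were above 0, beside 40.3% of all probes in WT and 63.6% in Il10-/-. Over detected probes these shares were 54.5% and 40.01%. The 1 WT value below 0 was that of the undetected other probe of Hist2h4. On each of the 5 slides 3 probes were higher in WT and 9 in Il10-/-, and the share of all probes that were so was not counted. Hist4h4 was at 5.77, 5.68, 5.37, 5.80 and 1.18 in WT 0 Gy and at 5.63, 5.40, 5.86, 6.21 and 6.10 in WT 7 Gy. Replicate 5 at 0 Gy lay far below the other 9 values. The WT difference of 1.08 ± 0.724 (SE, n = 5) was not called (limma-adjusted p 0.506) and was 0.18 without that array. The Il10-/- mice had Hist4h4 at 6.07, 5.92, 5.58, 5.81 and 5.77 at 0 Gy and at 6.48, 6.32, 6.09, 6.98 and 6.40 at 7 Gy. The groups did not overlap, and the difference of 0.62 ± 0.232 (SE, n = 5) was not called (limma-adjusted p 0.0851).

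Hist1h4m stood at 4.14, 4.38, 3.98, 4.66 and 3.11 in WT 0 Gy and at 4.60, 4.77, 5.08, 5.31 and 5.20 in WT 7 Gy. Only 0 Gy replicate 4 reached the irradiated range. Its Il10-/- values were 4.72, 4.84, 3.82, 3.64 and 4.36 at 0 Gy and 4.93, 5.08, 4.75, 5.71 and 5.36 at 7 Gy, with 1 irradiated value in the 0 Gy range. The differences of 0.94 (limma-adjusted p 0.192) and 0.89 (limma-adjusted p 0.0851) were not called. Hist1h4h was dim and differed by 0.21 and -0.17, the latter flipping to 0.09 under normexp. The class mean of the 9 H4 genes was 5.28, 5.35, 5.09, 5.61 and 3.41 in WT 0 Gy and 5.30, 5.22, 5.49, 5.88 and 5.59 in WT 7 Gy. In Il10-/- it was 5.68, 5.61, 5.14, 5.25 and 5.38 at 0 Gy and 5.91, 5.85, 5.47, 6.35 and 5.81 at 7 Gy, an overlap of 1 irradiated array with the 0 Gy range.

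**Figure D4:**
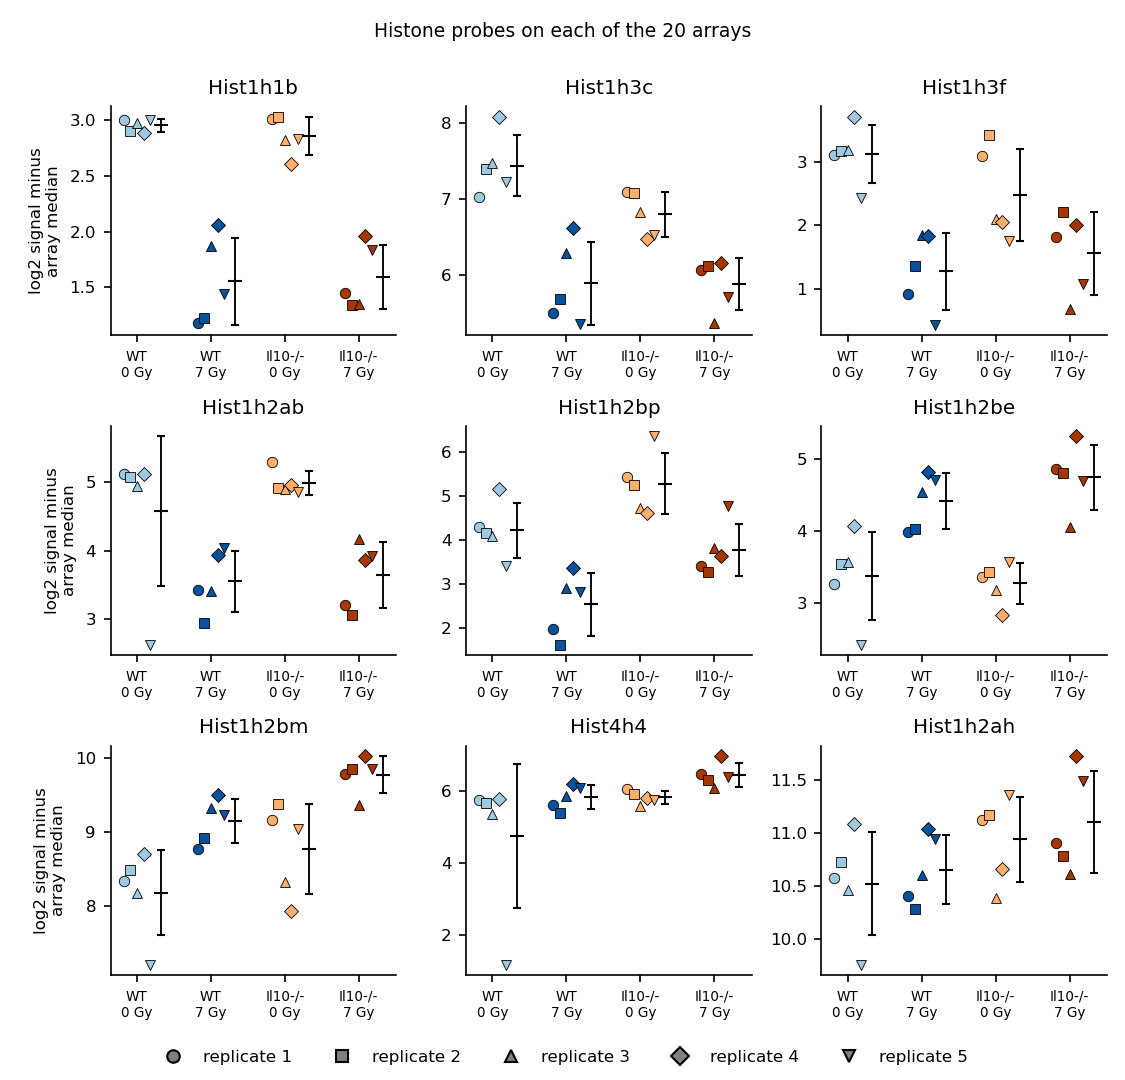
Levels (log2 relative to the array median) of 9 clustered histone genes on the 20 arrays, with 1 symbol per replicate and bars for the mean ± SD of 5 mice a group. Hist1h1b at 7 Gy lies below each 0 Gy value in both genotypes, and Hist4h4 in WT 0 Gy replicate 5 stands alone at 1.18.

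A pair of probes was available for 5 genes (Hist1h2ak, Hist1h4d, Hist1h4i, Hist1h4k and Hist2h4), and none of these probes was called. The gaps between the 2 probes of the first 4 genes were 0.54, 0.21, 0.65 and 0.25 in WT and 0.52, 0.24, 0.08 and 0.22 in Il10-/-, while the other probe of Hist2h4 was not detected. For Hist1h4i the main probe gave 0.23 in WT and 0.85 in Il10-/- and the other probe 0.88 and 0.92. The main probe has no listed position. The other is placed at mm9 chr13:21923974-21924033, close to the Hist1h4m probe at chr13:21923661-21923720. Whether the 2 probes report the same gene is therefore not shown. For Hist1h4k the other probe gave 0.68 and 0.74 with groups apart in both genotypes.

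Unirradiated Il10-/- and WT mice were compared to ask whether the genotypes differed before exposure. Limma called 0 of 51 members, where it called 0.167% of all probes, and at an unadjusted p under 0.05 there were 2 members, both higher in Il10-/-, beside 17.2% of all probes. Groups were apart for 2 members, Hist2h2be (0.85) and Hist2h3c2 (1.26), beside 3.43% of all probes. Of the 46 detected member probes 37 were above 0 (80.4%, beside 74.99% of all detected probes), and 19 were above the median of all detected probes, 0.44. The class medians, close to that value, were 0.41 for H2A, 0.47 for H2B, 0.39 for H3 and 0.41 for H4, which flipped to -0.09 for H2A, -0.04 for H2B and -0.19 for H4 under normexp and to -0.02 for H3 under quantile, and in the deposited table to -0.21 for H2A and -0.24 for H3. Without Hist1h3a the H3 median was 0.21 and flipped to -0.17 to -0.09 under the other scalings. The H1 median of -0.10 stayed below 0 under each scaling. Without WT 0 Gy replicate 5 the medians were 0.21 for H2A, 0.34 for H2B, 0.20 for H3 and 0.12 for H4, beside 0.20 over detected probes. Of the markers of blood cells at 0 Gy, limma called 4 of 8 neutrophil precursor genes and 1 of 8 mature neutrophil genes higher in Il10-/- (medians 2.14 and 1.89). These were 4 and 6 with the slide as a block and 2 and 0 with replicates 1 and 2 averaged. It called 0 of 7 platelet genes (median 1.08) and 0 genes of B, T or NK cells, monocytes or erythroid cells. Of 12 liver genes (median 3.91) it called 0 here and 9 with that block. Their part in the histone values was not tested. The 0 Gy arrays of this comparison also serve the radiation responses, so its values are not independent of theirs.

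Whether the radiation responses differed between the genotypes was asked by the interaction of genotype and dose. Limma called 0 of 51 members and 0% of all probes, and at an unadjusted p under 0.05 there were 2 members, Hist1h2ac (1.05) and the undetected Hist1h2bq (1.93), beside 21.7% of all probes. The class medians were 0.12 for H1, 0.07 for H2A, 0.06 for H2B, 0.06 for H3 (0.27 without Hist1h3a) and -0.07 for H4, beside medians of 0.23 over all probes and -0.31 over detected probes, and the H4 median flipped under each other scaling, to 0.19 (75th percentile), 0.17 (quantile), 0.19 (reference array) and 0.25 (normexp). Each of these class medians took both signs when single arrays were left out. They ran from -0.004 to 0.24 (H1), -0.10 to 0.27 (H2A), -0.15 to 0.19 (H2B), -0.23 to 0.38 (H3) and -0.21 to 0.29 (H4). No histone gene was thus shown to respond differently in the 2 genotypes.

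Promoter sequences from the RefSeq annotation of build GRCm38.p6 were matched for 40 of the 46 genes, each from 250 bases before to 50 bases after the start. They were searched on both strands for CCAAT, for the TATA box letters TATAAA, for the octamer of H2B promoters, ATTTGCAT, and for the letters AAACACA known from H1 promoters. A match is a description of letters and not of a bound protein. CCAAT occurred in 34 of 40 member promoters (85%) and in 37.4% of all 32851 promoters, with 2 of 8 for H4 and each matched gene of the other classes. TATAAA occurred in 24 of 40 (60%) beside 13.6%. ATTTGCAT occurred in 12 of 40 (30%) beside 1.74%, in 6 of 13 H2A genes, in 6 of 8 H2B genes and in no gene of H1, H3 or H4. AAACACA occurred in 8 of 40 (20%) beside 7.18%, among them 4 of 5 H1 genes. The 110 bases before the start are given for 5 genes to show where the letters stand, with matches in capitals.
Hist1h1b promoter: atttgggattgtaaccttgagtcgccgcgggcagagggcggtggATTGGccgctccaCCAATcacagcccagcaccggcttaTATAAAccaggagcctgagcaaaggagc
Hist1h2ab promoter: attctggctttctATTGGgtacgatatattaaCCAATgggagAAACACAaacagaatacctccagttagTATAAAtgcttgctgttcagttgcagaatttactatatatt
Hist1h2bm promoter: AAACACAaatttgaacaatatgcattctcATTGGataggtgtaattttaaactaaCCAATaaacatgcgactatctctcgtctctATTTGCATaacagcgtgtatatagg
Hist1h2bp promoter: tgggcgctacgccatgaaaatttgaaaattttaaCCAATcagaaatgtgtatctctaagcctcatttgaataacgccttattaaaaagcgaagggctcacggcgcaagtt
Hist1h3c promoter: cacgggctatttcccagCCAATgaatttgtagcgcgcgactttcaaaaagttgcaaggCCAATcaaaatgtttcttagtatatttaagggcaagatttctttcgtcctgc
In this order they lie at chr13:21780626-21780735 (minus strand), chr13:23750978-23751087 (plus strand), chr13:21721934-21722043 (plus strand), chr13:21787378-21787487 (plus strand), chr13:23745522-23745631 (minus strand). The 6 detected H2B genes with ATTTGCAT had a median difference of 0.94 in WT and 0.95 in Il10-/-, with 4 of 6 above 0. The other 2, Hist2h2bb and Hist1h2bb, were each well above background on 1 of 5 Il10-/- 7 Gy arrays. Hist1h2bp, the only detected H2B gene with a promoter that lacks it, was at -1.68 and -1.49. For the detected H2A genes the medians were 0.17 and 0.19 with the letters and 0.05 and 0.14 without. The windows of 4 pairs of genes on opposite strands overlapped, each an H2A and an H2B gene, so that some matches count for both. In the pair of Hist1h2an, whose probe lists 4 genes, and Hist1h2bp, with 261 bases in common, the differences were 0.14 and -1.68 in WT and 0.15 and -1.49 in Il10-/-. In the pair of Hist1h2ae and Hist1h2bg, with 279 bases in common, they were -0.53 and 1.08 in WT and -0.08 and 1.23 in Il10-/-. In the pair of Hist1h2aa and Hist1h2ba, with 220 bases in common, they were 0.52 and 0.92 in WT and 0.85 and 0.89 in Il10-/-. The fourth pair holds the undetected Hist1h2bq.

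By place in the genome (mm9), the members formed 3 stretches. The stretch at chr13:21814057-22134451 held 14 genes, and the 12 with a detected main probe placed there had a median difference of 0.08 in WT and 0.16 in Il10-/-. The stretch at chr13:23622937-24026527 held 22 genes, with medians of 0.23 and 0.10 over the 20 detected. The stretch at chr3:96024171-96074115 held 6 genes, with medians of -0.16 and -0.18 over the 5 detected. Hist3h2bb-ps, Hist4h4 and Hist2h2aa2 were listed elsewhere, and 2 probes had no position. Leaving aside the genes listed elsewhere, the medians of the 3 stretches spanned a narrower range than the class medians in both genotypes.

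Genes that work with histone supply were set beside the members. Of 12 detected genes for processing and transcription of histone mRNA, such as Slbp and Npat, limma called 0, with medians of -0.03 in WT and -0.38 in Il10-/-. Of 13 detected chaperones, which carry histones to DNA, 1 was called lower in each genotype. Rbbp4 fell by 2.00 ± 0.396 (SE, n = 5) in WT (limma-adjusted p 0.00836) and dropped from 8.38 ± 0.90 (SD, n = 5) to 6.18 ± 0.32 in Il10-/- (limma-adjusted p 0.00754), beside chaperone medians of -0.29 and -0.48. Of 10 detected histone variants outside the clusters limma called 0, with medians of 0.13 and -0.20, though with the slide as a block H3f3a was called lower in WT. Of 25 detected S-phase genes, 3 were called lower in WT (Ccna2, E2f2, Top2a), and in Il10-/- 4 were called lower (Cdk2, Cdt1, E2f2, Mcm2) and Cdc45 higher. Beside this list and the others here and below, limma called 2.32% of all probes higher and 1.34% lower in WT. In Il10-/- these shares were 2.14% and 2.51%. E2f2 fell by 2.54 ± 0.569 (SE, n = 5) in WT (limma-adjusted p 0.0166) and by 2.80 ± 0.525 in Il10-/- (limma-adjusted p 0.00878), and Cdc45 rose by 1.80 ± 0.323 in Il10-/- (limma-adjusted p 0.00717). With the slide as a block, 2 S-phase genes were called in Il10-/- (Cdk2 and E2f2), and with replicates 1 and 2 averaged 0 were called in WT and 1, Cdc45, in Il10-/-, where the Rbbp4 call was lost too (unadjusted p 0.00123). The S-phase medians were -0.54 and -0.82, with 20 and 23 of 25 genes below 0, whereas 28 and 27 of the 42 detected histone genes were above 0, beside 54.5% and 40.01% of all detected probes. Their summed level averaged 10.44 in WT 0 Gy, 8.54 in WT 7 Gy, 11.24 in Il10-/- 0 Gy and 8.94 in Il10-/- 7 Gy, with E2f2 the brightest gene and 2 to 4 of 27 below background throughout a group.

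**Figure D5:**
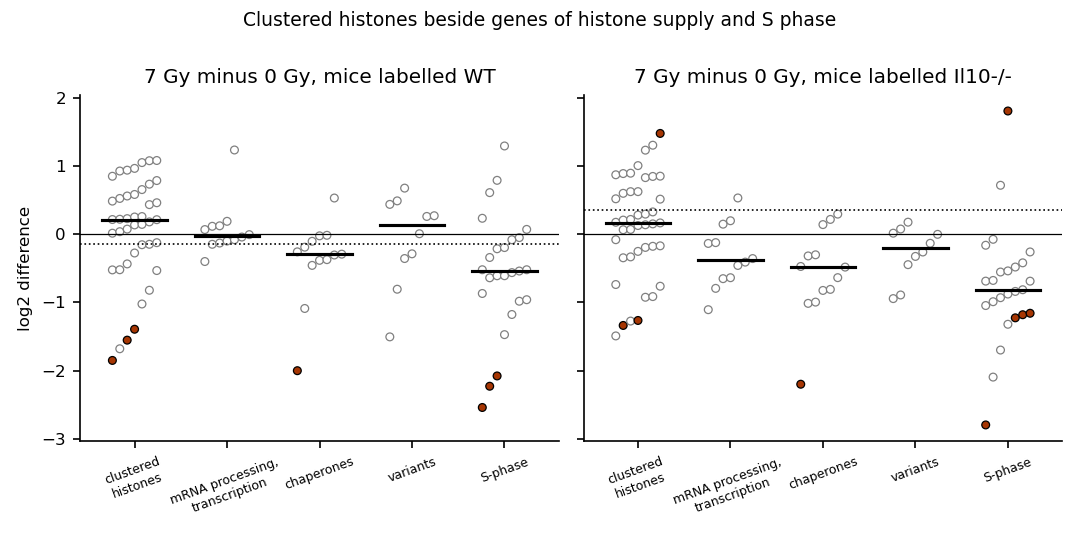
Log2 difference (7 Gy minus 0 Gy) of each detected clustered histone gene and of each detected gene of 4 related lists in WT and Il10-/- mice; filled points were called, bars are list medians and the dotted line is the all-probe median. The S-phase medians are -0.54 and -0.82.

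Markers of blood cell types were read as well. Of 10 B cell genes 8 were called lower in WT and 9 in Il10-/- (medians -2.90 and -3.24), and their summed level averaged 9.87 and 6.84 in WT and 9.68 and 6.25 in Il10-/- at 0 and 7 Gy, with Cd79b brightest and 0 genes below background throughout a group except 2 in Il10-/- 7 Gy. Of 10 T cell genes 1 was called lower in each genotype (medians -0.45 and -0.62). Of 12 erythroid genes 4 were called lower in each (medians -1.02 and -0.84), while their summed level, in which Hba-a1 is brightest, averaged 16.55 and 16.23 in WT and 16.40 and 16.26 in Il10-/-. Of 8 mature neutrophil genes limma called 0 for radiation (medians -0.17 and -0.78), and of 8 neutrophil precursor genes 1 was called higher in WT and 1 lower in Il10-/- (medians 0.10 and -1.75), the latter lost with the slide as a block. Of 6 monocyte genes 1 was called higher and 1 lower in WT and 2 lower in Il10-/- (medians 0.14 and -0.06). Of 7 platelet genes limma called 0, with medians of 1.26 and 1.19 and 7 of 7 above 0, and of 6 NK cell genes it called 0, with medians of 0.28 and 0.06. Their part in the histone result was not tested.

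Genes of liver and heart were also read, since the blood was drawn from the heart. Of 12 liver genes 8 were called higher in WT and 0 in Il10-/- (medians 6.77 and 1.72), and of 8 heart genes 0 in WT and 4 higher in Il10-/- (medians 3.70 and 5.92), or 1 with the slide as a block and 1 with replicates 1 and 2 averaged. The summed liver level, with Trf brightest, was 16.11, 16.09, 13.49, 8.96 and 10.95 in WT 7 Gy and 7.91, 7.96, 7.90, 7.93 and 7.01 in WT 0 Gy. In Il10-/- it was 8.21, 8.25, 13.25, 14.43 and 8.14 at 0 Gy and 14.43, 14.43, 8.74, 13.26 and 10.12 at 7 Gy. The summed heart level, with Myl3 brightest, was 12.71, 12.62, 9.33, 6.61 and 6.01 in WT 7 Gy and 12.42, 12.36, 9.43, 10.44 and 6.45 in Il10-/- 7 Gy. At 0 Gy it was 6.56, 6.48, 6.97, 8.13 and 4.38 in WT and 5.16, 4.93, 6.06, 5.14 and 8.04 in Il10-/-. These levels differed widely between arrays of a group, and their part in the histone result was not tested.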

How the data were processed

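The values are the processed intensity that the authors deposited, which per the file headers Agilent Feature Extraction wrote after background correction. Intensities were converted to log2, spots marked as non-uniform outliers dropped, spots of a probe averaged, and each array's median over non-control probes subtracted. R 4.3.3 with limma 3.58.1 and data.table (version 1.17.8), and Python 3.11.15 with numpy 2.4.6, pandas 2.3.3 and matplotlib 3.10.9, were used. Each comparison was fitted by limma (lmFit, eBayes, 2-sided, Benjamini-Hochberg) to its 10 arrays, and the interaction to all 20, with individual mice as replicates. A class or list used 1 probe a gene, the one well above background on the most arrays. Named members were the called genes (at most 12 per direction) and the largest rise and fall of each class among genes well above background on all 5 arrays of a group. Lists covered histone supply (mRNA processing and transcription, chaperones, variants), S phase and markers of blood cells, liver and heart. Members and lists were chosen with earlier results of these data known. Alternatives were 75th percentile, quantile and reference-array scaling, normexp (offset 50), the study's 2 filters (marked on 25% of arrays, 1.5-fold in 20%), the first filter alone, the authors' deposited log2 table, a joint fit of 4 groups, a replicate block, an adjusted p below 5% alone, replicates 1 and 2 averaged, and leaving out each array. The 2 filters as run here kept 18581 probes, beside 16866 in the authors' deposited table, so the study's set was not reproduced exactly. The number of arrays limits the precision.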

Additional observations from a re-analysis of the deposited data

Results flagged for a closer look

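Each of the 16 named genes and each class mean was checked in each group for a replicate far from the other 4, by the gap to its nearest neighbour as a share of the range (above Dixon's critical value of 0.71). Of 64 groups of gene values 6 held such a replicate, and of 20 groups of class means 1 did, where chance alone gives about 1 in 20 groups.

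In WT 0 Gy, replicate 5 stood apart 5 times. Hist1h2ab was at 2.62 there and at 4.94 to 5.12 in the other 4 mice, Hist1h1e at 2.13 beside 4.07 to 4.34, and Hist4h4 at 1.18 beside 5.37 to 5.80. Hist1h4h was at -1.09 beside 1.02 to 1.56, and the mean of the H4 genes was 3.41 beside 5.09 to 5.61. The same array had 29.9% of its spots well above background, the smallest share of the 20 arrays, and repeated spots of a probe differed on it with a robust SD of 0.272, beside 0.0727 to 0.118 on the other 19. Whether the array or the mouse accounts for these values was not tested.

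In Il10-/- 0 Gy, replicate 1 had Hist1h2ab at 5.29 beside 4.85 to 4.96. In Il10-/- 7 Gy, replicate 3 had Hist1h2ac at 4.04 beside 5.25 to 5.48, on an array with 34.6% of its spots well above background.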

How the results depend on the processing

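In WT, 3 histone probes were called, and 0 to 5 were with single arrays left out. There was 1 (Hist1h3f) with the study's 2 filters, under which 34 members were tested, and 0 with replicates 1 and 2 averaged, which leaves fewer samples. Normexp called 2, Hist1h3c and Hist1h2ab (-0.97, limma-adjusted p 0.00276), and the cause was not tested. Of all probes tested, limma called 6.8% with the 2 filters, 2.03% with replicates 1 and 2 averaged and 4.04% under normexp. Hist1h2bp was also called under quantile, the reference array, the authors' table and all 4 groups in 1 fit, at -1.93 to -1.68.

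In Il10-/-, 3 were called, and 2 to 4 were with single arrays left out. There were 14 under quantile, 7 under the reference array, 16 under normexp and 5 in the authors' table, where the cause was not tested, 6 at an adjusted p below 5% alone, 1 with a replicate block and 0 with replicates 1 and 2 averaged. Of all probes tested, limma called 10.8% in the authors' table, where 29 members were tested, and 8.83% at the adjusted p alone. These shares were 2.64% with the block and 2.38% with replicates 1 and 2 averaged, beside 4.65% in the main fit. The 11 higher under quantile were of H2B (4), H4 (6) and H2A (1).

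In both the comparison of genotypes at 0 Gy and the interaction, limma called 0 histone probes under each alternative run and with any array left out, beside 2 and 2 at an unadjusted p under 0.05.

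Class medians moved by more than their spread in 4 cases. In the authors' table, which holds 2 H1 and 4 H4 genes of those detected, the H1 median was -0.69 in WT and 0.62 for the interaction, and the H4 median was 0.88 in Il10-/-. Under the 75th percentile the H1 median for genotype at 0 Gy was -0.45. With single arrays left out, the WT medians ran from -0.28 to 0.08 (H1), -0.08 to 0.20 (H2A), 0.34 to 0.78 (H2B), -0.39 to -0.09 (H3) and 0.18 to 0.66 (H4). In Il10-/- they ran from -0.41 to -0.18 (H1), -0.01 to 0.29 (H2A), 0.51 to 0.88 (H2B), -0.30 to -0.09 (H3) and 0.40 to 0.62 (H4).

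A direction reversed in 2 named genes, both under normexp: Hist1h1e in WT to -0.0577 and Hist1h4h in Il10-/- to 0.0910, and the cause was not tested. Otherwise named genes kept their direction and their side of the threshold in 171 pairs of gene and setting, were newly called in 8 and no longer called in 15. With an array left out the numbers were 174, 5 and 21.

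Replicates of the same number were hybridized on the same slide. A replicate block changed the called count from 3 to 2 in WT and from 3 to 1 in Il10-/-. It ended the calls of Hist1h1b in both genotypes and of Hist1h2ab and Hist1h2be in Il10-/-, and Hist1h2bp was called there instead. The mean correlation between arrays of the same number was 0.22 for WT 0 and 7 Gy and -0.05 for Il10-/- 0 and 7 Gy, and 0.41 between WT 7 Gy and Il10-/- 7 Gy, the highest of the 6 pairs of groups. Replicates 1 and 2 were the least different pair in each of the 4 groups (robust SD 0.183 to 0.270), and whether they are separate mice cannot be told from the files.

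With Hist1h3a left out, chosen after seeing the data because it was well above background on 0 Gy arrays alone, the H3 medians were -0.22 in WT, -0.06 in Il10-/-, 0.21 for genotype at 0 Gy and 0.27 for the interaction.

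Signal over background limits Hist1h1d, Hist2h2ab, Hist1h2bq and Hist1h3g, for which no direction is claimed. The split of all called probes shifted with the scaling, in WT from 913 higher and 529 lower to 787 and 855 under the 75th percentile, and in Il10-/- from 843 and 990 to 900 and 1617 under quantile.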
